A study of Mus musculus with 12 samples.

Results

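The genes described here are 40 genes of DNA replication and cell division, chosen by name from the 23937 genes of the deposited expression table: the markers Mki67 and Top2a, the cyclins and Cdk1, the replication helicase and nucleotide supply genes, and the kinases, checkpoint and spindle genes of mitosis. RNA came from mouse CD8 T cells, the killer cells of adaptive immunity, isolated by fluorescence-activated sorting. The 12 libraries form 4 groups of 3: CD8 T cells from the blood of naive mice (naive blood), from the brain of naive mice (naive brain), and from the brain at 3 days and at 30 days after a stroke (day 3 brain and day 30 brain). Brain or blood is the tissue given for each sample, and the groups rest on it, although the protocol text names the spleen as source. Whether the samples of a group came from different mice is not stated, so a p-value here weighs a difference against the spread of 3 samples, and that spread may be technical. The study set the post-stroke brain cells against naive blood and naive brain as references. Each library is bulk RNA, so fewer dividing cells and less cell cycle RNA per cell cannot be told apart.

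A T cell that is activated leaves its resting state, passes through a growth phase, copies its DNA in S phase, and separates the copies in mitosis. The MCM helicase opens the DNA at replication origins, PCNA holds the polymerases on the template, and ribonucleotide reductase and thymidylate synthase supply the nucleotides. Cyclins bound to their kinases drive each step, and the spindle checkpoint holds anaphase back until every chromosome is attached. Resting T cells carry few of these transcripts, which is why genes such as Mki67 are used as markers of division.

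Levels are in CPM, the read count per-million of a library size that the authors scaled. A difference is the first-named group's mean log2(CPM + 1) less that of the other, ± SE, and understates the change where values are low. Where 1 library is high, its sign can differ from that of the difference in mean CPM, as for 5 to 7 of the 40 genes in each comparison. Depth ran from 1104490 to 21014171 reads per library, and the 40 genes together took 0.0982% to 0.249% of them. A second feature set libraries apart, the reads on 1484 receptor genes of smell, pheromone sensing and taste (receptor genes below). As unscaled CPM these came to 164 to 873 in the 3 naive brain libraries, 252 in day 3 replicate 1 and 518 in day 30 replicate 1. The other 7 libraries, all of naive blood and replicates 2 and 3 of day 3 and of day 30, held 2006 to 7813. Transcripts of the sorted cell type were found in every library, with Cd8a, a chain of the CD8 co-receptor, at 52.8 to 2809 CPM. Their level differed widely. The 12 T cell marker genes took 0.0715% of reads in day 3 replicate 2, the lowest share, and 1.25% in day 30 replicate 1, the highest. Of these markers Cd27 was at 4.55 CPM in day 3 replicate 2. Transcripts of microglia, the macrophages that live in brain tissue, were present as well: 14 microglia genes summed to 18271 to 47920 CPM in naive brain, 2148 to 25695 CPM in day 3 brain, 1646 to 9462 CPM in day 30 brain and 164 to 340 CPM in naive blood, and none of the 14 was at 0 in any library. The part of microglia and of the receptor gene background in the values below was not tested except where a value is given.

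All 40 genes passed the filter on low values, and 28 had at least 1 read in every library. The other 12 were at 0 in at least 1 library, most of them in naive blood replicate 1, where 8 genes had no read. A count of 0 allows up to 3 reads, which is 0.298 CPM in the deepest library and 1.65 CPM in the shallowest. Set against the receptor genes in RPKM, the reads per kb of exon and per-million reads, 39 of the 40 genes lay above the 95th percentile of those genes in naive brain replicate 3 and in day 3 replicate 1, and 15 in naive blood replicate 1. Pcna and Mcm4 lay above it in all 12 libraries. Pcna was also the most abundant per length, at a mean of 96.7 RPKM over the libraries, followed by Stmn1 at 33.5 RPKM and Mcm4 at 18.3 RPKM. Bub1, Cdca8 and Cenpf lay above it in 3 libraries each, and for Bub1 these were the 3 day 3 libraries.

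**Figure D1:**
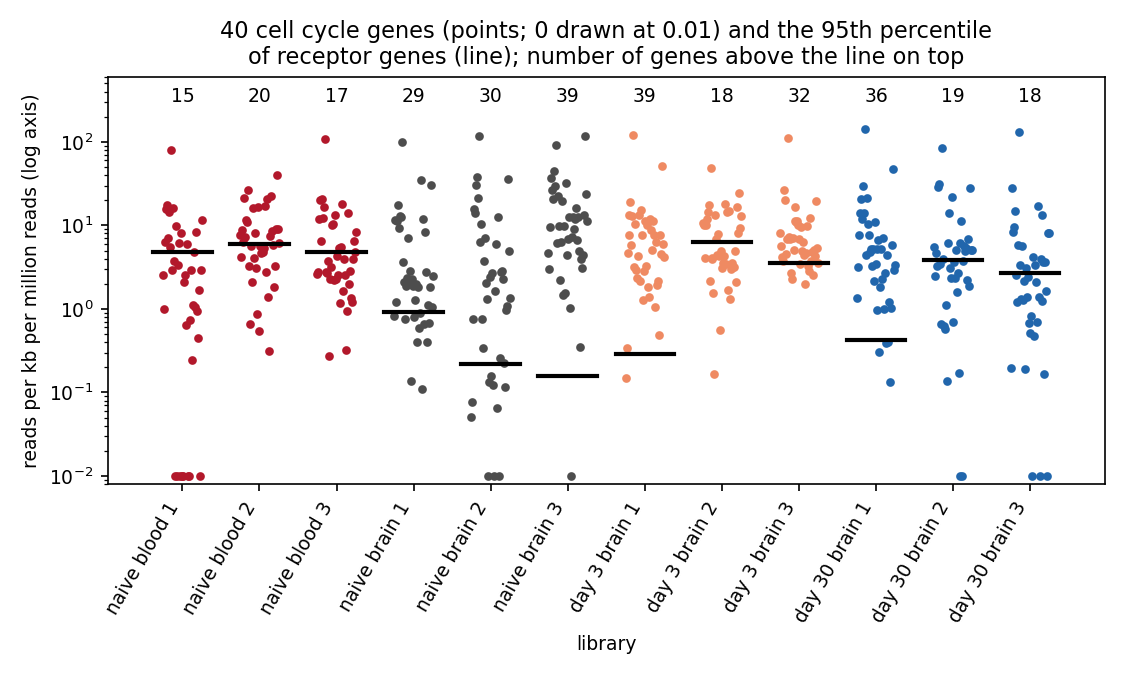
Levels of the 40 genes in each of the 12 libraries in RPKM on a log axis (points, with 0 drawn at 0.01), the 95th percentile of the receptor genes (black line) and the number of the 40 genes above it (digits). The line is lowest in naive brain replicate 3, where 39 genes lie above it, and 15 to 20 genes lie above it in the naive blood libraries.

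No group of libraries stood apart in the mean level of the 40 genes, and the widest spread lay between libraries of 1 group, naive brain. The mean log2(CPM + 1) over the 40 genes was 3.09, 4.01 and 3.93 in naive blood (replicates in order), 4.03, 3.76 and 6.20 in naive brain, 5.12, 3.79 and 4.33 in day 3 brain and 4.85, 3.66 and 3.345 in day 30 brain. Naive brain replicate 3 was the highest of the 12 libraries, and the other two naive brain libraries lay within the range of the post-stroke libraries. Naive brain replicate 2 also lay within the range of the blood libraries, and replicate 1, at 4.03, just above their highest, 4.01. The group means were 3.68 ± 0.51 (SD, n = 3) in naive blood, 4.66 ± 1.34 in naive brain, 4.41 ± 0.67 in day 3 brain and 3.95 ± 0.79 in day 30 brain, and all groups overlapped. The labels do not pair day 30 with day 3 libraries. Matched by replicate number, the day 30 library was the lower one in all 3 pairs, or in 2 of 3 with median centring. In both groups replicate 1 had few receptor gene reads and replicates 2 and 3 many. Number and background therefore cannot be told apart here. No test is given for this mean over chosen genes.

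**Figure D2:**
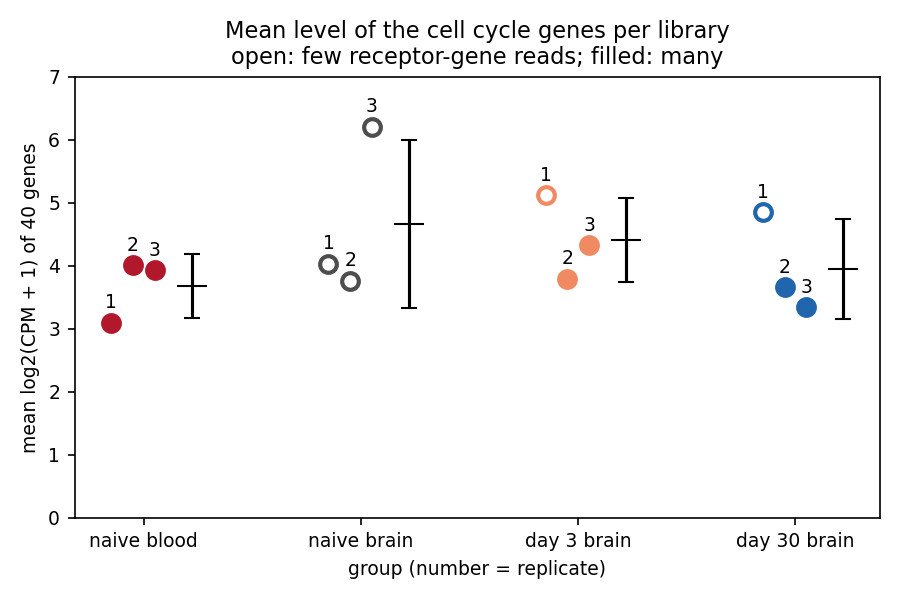
Mean log2(CPM + 1) of the 40 genes in each library (points, numbered by replicate) with group mean and SD (bars). Open points are the 5 libraries with fewer receptor gene reads and filled points the other 7. Naive brain replicate 3 stands at 6.20, and the other 11 libraries lie between 3.09 and 5.12.

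Naive brain replicate 3 held the highest value of 25 of the 40 genes over all 12 libraries (62.5%, against 14.5% of all 22352 genes tested). It exceeded both other naive brain libraries in 31 of the 40 (77.5%, against 30.3% of all genes tested). Without the scaling of library sizes it was the highest library for 15 of the 40 (37.5%, against 3.86%). Mki67, which encodes the Ki-67 protein of the dividing cell's chromosome surface, measured 14.3, 79.5 and 496 CPM in naive brain replicates 1 to 3. It measured 23.2, 55.4 and 36.2 CPM in naive blood, 96.4, 49.1 and 36.4 CPM in day 3 brain and 46.2, 40.9 and 71.8 CPM in day 30 brain. Replicate 3 of naive brain was thus above every other library, and the lowest library of all was replicate 1 of the same group. Top2a, the topoisomerase that untangles chromosomes before they part, measured 30.2, 19.4 and 213 CPM in naive brain. It measured 80.6, 33.5 and 57.0 CPM in naive blood, 60.2, 61.9 and 21.4 CPM in day 3 brain and 47.1, 35.8 and 64.1 CPM in day 30 brain. Without replicate 3, the Top2a values of naive brain lay below those of naive blood and of day 30 brain and overlapped with those of day 3 brain. The same library was the deepest and had the largest share of microglia reads, 2.30% against 1.38% and 1.14% in naive brain replicates 1 and 2, and its T cell markers were also higher, at a mean log2 level of 9.89 against 9.09 and 9.61. What sets this library apart was not tested. The mean level and the median difference of all 40 genes are given with and without it. Most single-gene differences and list counts that rest on naive brain are given with it only. Over the 40 genes the median absolute log2 gap between naive brain replicates 1 and 2 was 1.01, and it was 2.40 and 2.43 between replicate 3 and these. In the other groups the gaps between replicates ran from 0.80 to 1.66.

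**Figure D3:**
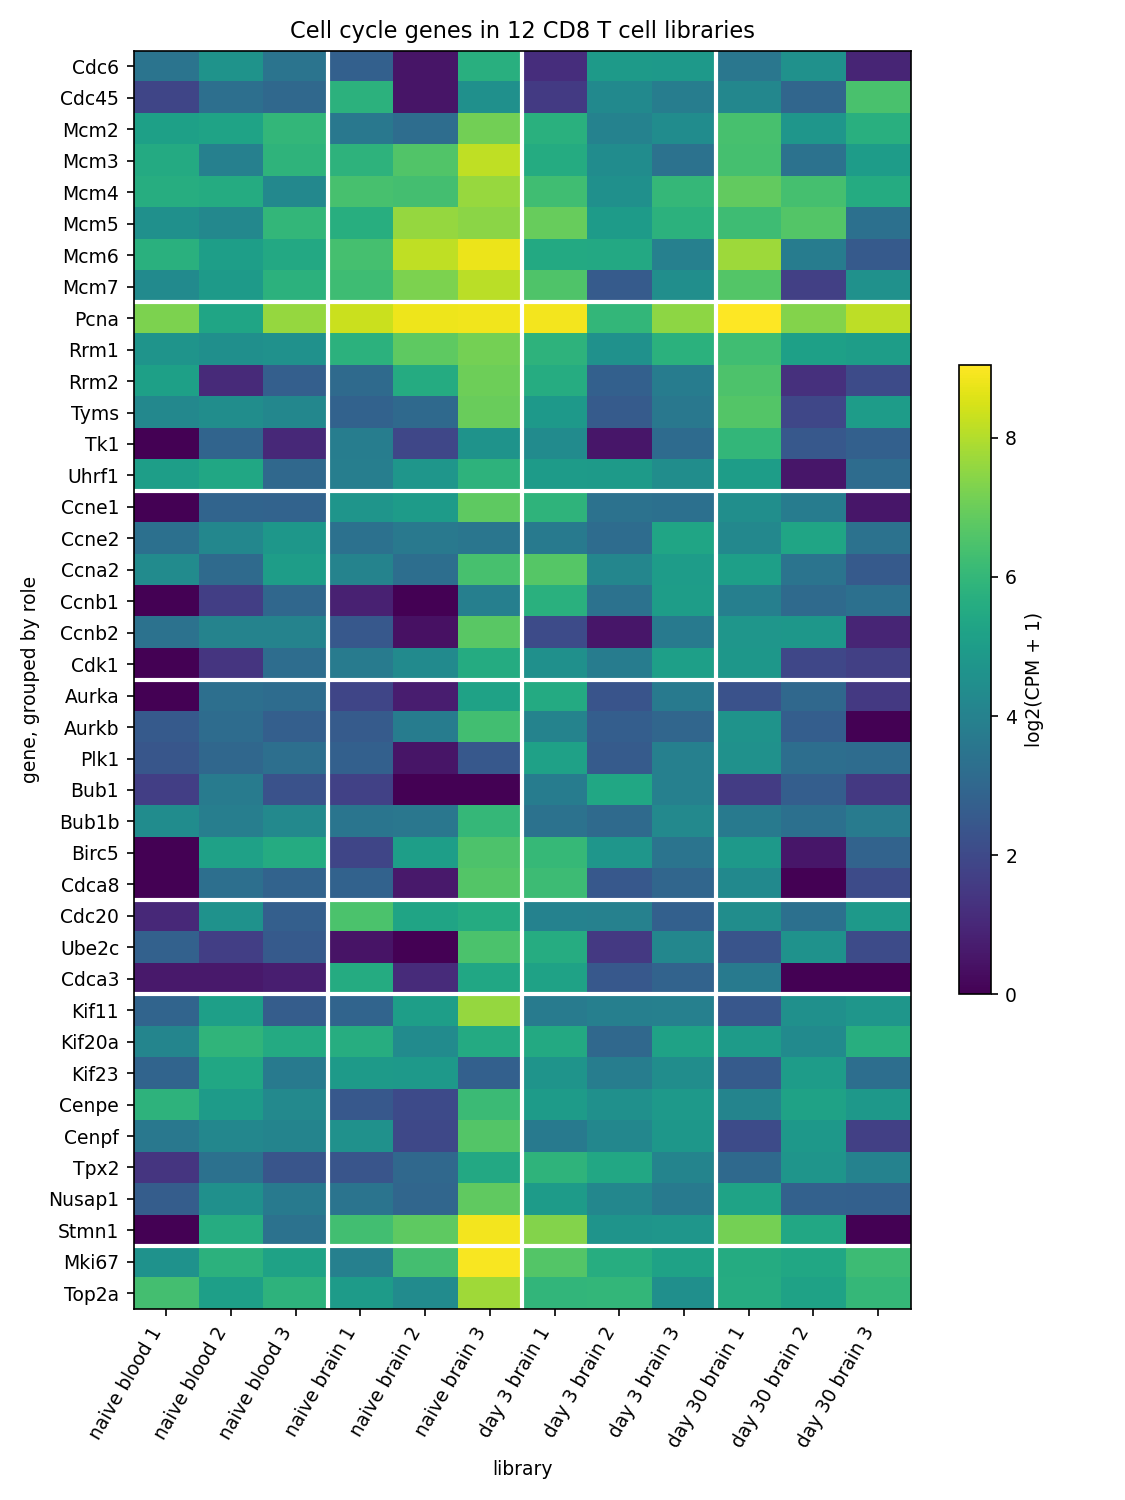
log2(CPM + 1) of the 40 genes (rows, in 7 blocks by role) in the 12 libraries (columns, in 4 groups of 3). The column of naive brain replicate 3 is the brightest in 25 rows, and Pcna is bright in nearly every column.

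Day 3 brain was compared with naive brain, which asks how CD8 T cells of the injured brain differ from those of the uninjured brain. Of the 14 replication genes 12 had a negative difference at day 3, and of the 18 mitosis genes 9 had a positive one, but none of the 40 passed the threshold of an adjusted p of 0.05 in limma (0 higher and 0 lower, where 0.716% of all genes tested passed it). At an unadjusted p below 0.05 there were 2 genes higher (Bub1 and Ccnb1) and 4 lower (Mcm6, Mcm7, Mcm3 and Cdc20), and the same share of all genes was 5.14% and 7.7%. By edgeR 0 passed (0.0761% of all genes tested), and by DESeq2 1 did, Bub1, which was higher (4.47%). The median log2 difference of the 40 genes was -0.45, against 0.50 over all genes tested. With unscaled CPM both medians moved, to 0.43 and 1.13, so the sign for the 40 genes depends on the scaling. Without naive brain replicate 3 the median of the 40 genes was 0.45.

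The 8 genes of replication licensing and origin firing had a median difference of -1.11 at day 3. Mcm3, a subunit of the MCM helicase, measured 56.2, 95.5 and 286 CPM in naive brain, against 46.3, 20.02 and 9.64 CPM in day 3 brain. It measured 45.4, 14.3 and 57.4 CPM in naive blood and 82.0, 9.64 and 31.2 CPM in day 30 brain. All 3 day 3 libraries lay below all 3 naive brain libraries (difference -2.41 ± 0.89, adjusted p = 0.235 in limma). The difference was -1.76 without naive brain replicate 3. Mcm6, another subunit, measured 81.0, 286 and 439 CPM in naive brain, against 43.7, 43.2 and 14.5 CPM in day 3 brain. These groups did not overlap either, with a difference of -2.80 ± 0.91 (adjusted p = 0.153). Mcm4 measured 84.8, 80.8 and 201 CPM against 76.4, 22.3 and 64.3 CPM, the smallest gap among the genes whose groups did not overlap. In RPKM, which leaves out the scaling, Mcm3 stayed apart but Mcm6 and Mcm4 overlapped. Mcm6 was at 12.9 RPKM in naive brain replicate 1 and 17.6 RPKM in day 3 replicate 2. Mcm7 had a difference of -2.68 ± 0.96, with overlapping groups, while Mcm2, a subunit of the same ring, had 0.05 ± 0.91. Whether the subunits differed from each other was not tested. Cdc6, which loads the ring onto origins, had a difference of 0.67 ± 1.18. The 6 genes of nucleotide supply and DNA synthesis had negative differences without exception in the main fit, with a median of -0.98. Pcna, the sliding clamp of the polymerases, measured 318, 449.9 and 456 CPM in naive brain, against 465, 61.9 and 183 CPM in day 3 brain. It measured 150.3, 38.4 and 194 CPM in naive blood and 525, 162 and 280.5 CPM in day 30 brain. Day 3 replicate 1 was as high as naive brain, and the 2 low day 3 libraries were those with many receptor gene reads.

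Among the mitosis genes, Bub1, a kinase of the spindle checkpoint, had the largest difference. It had 6, 0 and 0 reads in the naive brain libraries, which is 2.32 CPM in replicate 1, and 41, 90 and 27 reads in the day 3 libraries, which is 13.0, 40.9 and 14.5 CPM. It measured 2.16, 12.6 and 3.87 CPM in naive blood and 2.04, 5.51 and 1.81 CPM in day 30 brain. In CPM every day 3 library thus lay above every other library. In RPKM, which leaves out the scaling, day 3 replicate 1, at 1.85, lay below naive blood replicate 2, at 4.78. The difference from naive brain was 3.80 ± 1.12 (adjusted p = 0.0970), and it passed without day 3 replicate 1 (4.09, adjusted p = 0.0390). In that fit 673 of all 22305 genes tested passed, against 160 with the library. Ccnb1, the cyclin that starts mitosis with Cdk1, measured 0.775, 0 and 13.8 CPM in naive brain, against 52.3, 9.55 and 31.6 CPM in day 3 brain. Its groups overlapped in CPM (3.15 ± 1.16) but not in RPKM. Plk1, a kinase of mitotic entry, and Tpx2, a spindle assembly factor, had differences of 1.98 ± 1.11 and 1.49 ± 1.05. Ube2c, the ubiquitin-conjugating enzyme of the anaphase-promoting complex, had a difference of 1.44 ± 1.26 on the log scale although its mean was higher in naive brain, where replicate 3 alone held 88.4 CPM. Cdc20, which activates the anaphase-promoting complex, went the other way: 88.3, 37.9 and 46.3 CPM in naive brain, against 15.2, 14.6 and 5.89 CPM in day 3 brain, with no overlap (-2.19 ± 1.002). Stmn1, a microtubule-destabilising protein, had a difference of -1.74 ± 1.12. In all, 1 of the 40 genes (Bub1) had 3 day 3 libraries above all 3 naive brain libraries, where 8.76% of all genes tested did, and 4 (Mcm3, Mcm6, Mcm4 and Cdc20) had all 3 below, where 8.5% did. In RPKM the groups of Mcm6, Mcm4 and Cdc20 overlapped, and those of Bub1 and Mcm3 did not. Ccnb1, Plk1, Tpx2 and Ccne2, whose groups overlapped in CPM, also lay wholly above naive brain in RPKM at day 3. The share of all genes so placed in RPKM was not computed. Without the scaling the median difference of all genes tested was higher too, at 1.13. Cdk1, the kinase of mitosis, measured 12.4, 19.3 and 46.1 CPM in naive brain, against 22.5, 12.7 and 33.7 CPM in day 3 brain, a difference of -0.06 ± 1.11. In the same comparison 11 of 12 T cell marker genes fell, which sum to 8707 to 15031 CPM in naive brain and 377 to 3788 CPM in day 3 brain. Of all 22352 genes tested 126 fell and 34 rose, and with the receptor gene background as a term 0 fell. Of 12 monocyte and macrophage markers 2 rose (5856 to 6977 CPM summed in naive brain and 2666 to 20564 CPM at day 3), and of 7 erythroid markers the 4 globin genes rose (9.43 to 78.3 CPM summed and 205 to 1607 CPM).

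The replication and the mitosis genes were then set against each other within each library, a measure added after the values had been seen. The mean log2(CPM + 1) of the 14 replication genes (the licensing and the nucleotide supply genes) minus that of the 18 mitosis genes (the kinase and checkpoint, anaphase and spindle genes) was 1.57, 2.20 and 1.42 in naive brain replicates 1 to 3. It was 0.27, 0.42 and 0.71 in day 3 brain, 2.47, 0.42 and 1.60 in day 30 brain and 2.31, 0.35 and 1.18 in naive blood. The 3 day 3 libraries lay below the 3 naive brain libraries and overlapped with 1 blood and 1 day 30 library. The group means were 1.73 ± 0.41 (SD, n = 3) in naive brain and 0.47 ± 0.22 in day 3 brain, a difference of -1.26, which ran from -1.42 to -1.03 when 1 library was left out. Naive brain replicate 3, with the highest mean of both gene sets, had the smallest gap of the naive brain libraries, close to that of replicate 1 but not of replicate 2. With the receptor gene background as a term the difference was -0.87, and day 3 replicate 1, the 1 day 3 library with few receptor gene reads, had the smallest gap of all. No test is given, because the measure was formed on these libraries.

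**Figure D4:**
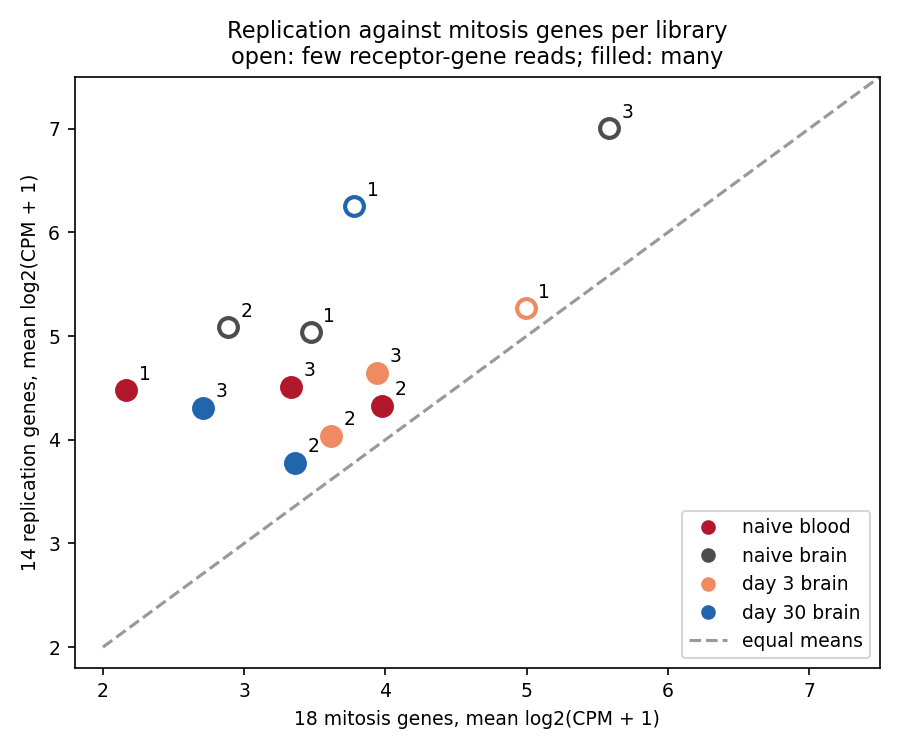
Mean log2(CPM + 1) of the 14 replication genes (vertical axis) against that of the 18 mitosis genes (horizontal axis) in each library, numbered by replicate, with the line of equal means dashed. Open points have few receptor gene reads and filled points many. The 3 day 3 libraries lie 0.27 to 0.71 above the line and the naive brain libraries 1.42 to 2.20 above it.

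Promoter sequences are shown for 4 of the 5 genes whose day 3 libraries lay wholly below or wholly above naive brain in CPM. These genes are Mcm3 and Mcm6 of replication and Bub1 and Cdc20 of mitosis. Mcm4 is the fifth, and its sequence is not shown. They come from RefSeq on build GRCm38.p6, span 250 bases before to 50 bases after the annotated start, and are read 5' to 3' on the gene's strand, here the minus strand for all 4. Capitals mark matches on either strand to 3 motifs: the E2F motif (TTCCCGC or TTGGCGC), the CHR motif (TTTGAA or TTCGAA) and the CCAAT box (CCAAT), each searched as the letters given and as their reverse complement. Mcm3 lies at chr1:20802968-20820312 in GENCODE vM21 and its window is chr1:20820263-20820562, and Mcm6 lies at chr1:128331590-128359664 with the window chr1:128359656-128359955. Bub1 lies at chr2:127801122-127831865 with the window chr2:127831810-127832109, and Cdc20 at chr4:118432901-118437352 with the window chr4:118437294-118437593. The windows hold the start of the first exon and the bases before it.
Mcm3: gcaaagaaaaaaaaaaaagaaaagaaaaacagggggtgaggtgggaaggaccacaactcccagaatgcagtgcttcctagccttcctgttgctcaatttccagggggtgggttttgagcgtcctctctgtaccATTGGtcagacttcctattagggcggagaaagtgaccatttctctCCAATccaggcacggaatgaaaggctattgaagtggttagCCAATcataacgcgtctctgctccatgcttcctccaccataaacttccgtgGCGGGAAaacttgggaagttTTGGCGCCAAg
Mcm6: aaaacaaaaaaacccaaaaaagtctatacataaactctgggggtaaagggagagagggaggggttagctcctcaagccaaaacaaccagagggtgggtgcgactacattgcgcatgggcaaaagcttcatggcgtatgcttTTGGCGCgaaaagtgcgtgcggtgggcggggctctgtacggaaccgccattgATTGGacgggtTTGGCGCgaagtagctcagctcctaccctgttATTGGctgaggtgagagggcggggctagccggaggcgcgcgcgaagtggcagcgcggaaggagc
Bub1: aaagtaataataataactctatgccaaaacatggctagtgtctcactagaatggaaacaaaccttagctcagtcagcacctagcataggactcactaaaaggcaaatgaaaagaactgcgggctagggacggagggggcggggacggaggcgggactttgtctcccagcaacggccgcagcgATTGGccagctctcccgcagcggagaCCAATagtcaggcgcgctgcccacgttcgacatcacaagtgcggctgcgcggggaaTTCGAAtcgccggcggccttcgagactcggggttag
Cdc20: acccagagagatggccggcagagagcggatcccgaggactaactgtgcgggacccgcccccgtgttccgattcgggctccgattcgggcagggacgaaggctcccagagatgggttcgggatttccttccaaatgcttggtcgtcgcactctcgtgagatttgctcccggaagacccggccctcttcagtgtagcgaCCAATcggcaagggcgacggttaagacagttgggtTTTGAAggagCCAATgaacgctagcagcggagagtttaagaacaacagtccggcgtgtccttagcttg
The Mcm3 window holds 3 E2F matches that begin 19, 39 and 42 bases after the start base, the last 2 overlapping each other, and the Mcm6 window holds 2 at -109 and -46. Neither holds a CHR match. The Bub1 window has 1 CHR match at 14 and the Cdc20 window 1 at -18, and neither has an E2F match. All 4 windows hold CCAAT boxes.

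Windows were matched for 33 of the 40 genes, 35 windows in all because Mcm7 and Uhrf1 have 2 each. Of the 35, 18 (51.4%) held a CHR match, 11 (31.4%) an E2F match and 29 (82.9%) a CCAAT match, where 19.2%, 6.81% and 37.4% of all 32851 windows of the same length did. The 13 replication genes held an E2F match in 8 of 15 windows (53.3%) and a CHR match in 3 of 15. The mitosis genes held a CHR match in 11 of 14 (78.6%) and an E2F match in 0. In 2 windows an E2F match overlapped a CCAAT match, which shares letters with it on the other strand. E2F factors are known to act on S phase genes and the CHR element on genes of mitosis, and a match here describes letters in a window, not a bound site.

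Day 30 brain was compared with naive brain. No gene of the 40 passed the threshold by limma (0 of 40, where 0.224% of all genes tested passed), and none did by edgeR (0.0268%) or DESeq2 (1.07%). At an unadjusted p below 0.05 there were 0 higher and 6 lower, namely Mcm6, Mcm7, Stmn1, Cdca3, Ccne1 and Mcm3, where 2.93% of all genes tested were higher and 5.97% lower at that level. The median difference of the 40 genes was -0.74, against 0.19 over all genes tested, and without naive brain replicate 3 it was 0.02. Mcm6 measured 212, 12.9 and 4.97 CPM in day 30 brain, so replicate 1 lay within the naive brain range of 81.0 to 439 CPM and the other two far below it (-3.07 ± 0.91, adjusted p = 0.173). Mcm7 had a difference of -2.91 ± 0.96 and Stmn1 one of -3.13 ± 1.12. Without day 30 replicate 1, the day 30 library with few receptor gene reads, Mcm6, Mcm7 and Stmn1 passed the threshold (-4.58, -4.06 and -4.61). In that fit 532 of all 22274 genes tested passed, against 50 with the library. Cdca3, a factor of mitotic entry, had a difference of -2.79 ± 1.20 and was at 0 in day 30 replicates 2 and 3. Ccne1, cyclin E1 of the entry into S phase, measured 25.6, 30.0 and 109.9 CPM in naive brain, against 21.3, 12.9 and 0.452 CPM in day 30 brain, with no overlap (-2.56 ± 1.11). The largest positive differences were those of Ccnb1 (1.89 ± 1.16) and Plk1 (1.75 ± 1.11), and those of Cenpe, a kinetochore motor, Mcm2 and Cdc45 of the replication fork were 0.92 to 1.15. Plk1 was the 1 gene with 3 day 30 libraries above all 3 naive brain libraries, at 22.7, 8.72 and 8.13 CPM against 5.81, 0.431 and 4.67 CPM (7.22% of all genes tested were so placed). Cdc20 and Ccne1 were wholly below (6.03% of all genes tested). In RPKM, which leaves out the scaling, the groups of Cdc20 overlapped, and Ccnb1 and Ccne2 lay wholly above naive brain as Plk1 did. Of the microglia markers 5 of 14 fell in this comparison, and of the T cell markers 0 of 12 passed. Of all 22352 genes tested 50 fell, and with the receptor gene background as a term 0 passed.

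Day 30 brain was compared with day 3 brain, the late against the early time after stroke. None of the 40 genes passed by limma, edgeR or DESeq2, where 0.255%, 0.157% and 0.747% of all genes tested passed. With the replicate number as a block, 115 of all genes tested passed against 57 without it, and still 0 of the 40. At an unadjusted p below 0.05 there was 0 higher and 1 lower, Bub1, where 2.57% and 3.1% of all genes tested were. In RPKM Bub1, Ccna2, Ccnb1 and Cdca3 lay wholly lower at day 30 and Mcm2 wholly higher. In CPM Bub1 was the 1 gene whose groups did not overlap, with 3 day 30 libraries below all 3 day 3 libraries (5.65% of all genes tested, and 4% lay wholly above), a difference of -2.45 ± 1.12 (adjusted p = 0.779). The next largest negative differences were those of Cdca3 (-2.29 ± 1.20), Birc5 (-2.01 ± 1.18) and Cdca8 (-1.78 ± 1.27), both subunits of the chromosomal passenger complex, and Uhrf1 (-1.84 ± 1.01), which carries DNA methylation over to the new strand. Positive differences were smaller, the largest being those of Ccnb2, a mitotic cyclin, at 1.40 ± 1.23 and of Cdc45 at 1.31 ± 1.15. Mki67, Top2a and Bub1b, a checkpoint kinase, had differences of -0.11 ± 0.87, 0.14 ± 0.85 and 0.01 ± 0.9997. The median of the 40 genes was -0.385, against -0.15 over all genes tested. Of 12 T cell markers 4 rose from day 3 to day 30, where 26 of all 22352 genes tested rose, and 0 of 14 microglia markers passed.

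Naive brain was compared with naive blood, the 2 reference tissues. Stmn1 and Ccne1 rose in naive brain relative to blood by limma, which makes 2 of the 40 genes higher and 0 lower, where 6.61% of all genes tested were higher and 0.975% lower. Stmn1 measured 0, 47.2 and 9.50 CPM in naive blood, 78.3, 109.8 and 473 CPM in naive brain, 162, 24.6 and 25.7 CPM in day 3 brain and 141, 42.2 and 0 CPM in day 30 brain. In CPM the naive brain libraries lay above all blood libraries, and the difference was 4.34 ± 1.12 (limma adjusted p = 0.00793). In RPKM, which leaves out the scaling, naive brain replicate 1, at 30.3, lay below naive blood replicate 2, at 40.5. Ccne1 measured 0, 6.58 and 6.34 CPM in naive blood and 58.0, 9.55 and 9.10 CPM in day 3 brain, beside the naive brain values above, and the difference from blood to naive brain was 3.56 ± 1.11 (adjusted p = 0.0349). Both had 0 reads in naive blood replicate 1, and neither passed without that library (2.84 and 2.60) or without naive brain replicate 3 (3.56 and 2.91). Without naive brain replicate 2 Ccne1 also missed the threshold (3.83, limma adjusted p = 0.0652). With the receptor gene background as a term the differences were 0.80 and 1.15 and did not pass. Naive brain holds only libraries with few receptor gene reads and naive blood only libraries with many, so in this pair tissue and background cannot be told apart. All 14 microglia markers rose in the same comparison.

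At an unadjusted p below 0.05, 11 of the 40 genes were higher in naive brain than in naive blood and 0 lower, where 14.3% of all genes tested were higher and 11.6% lower. By edgeR 1 passed, Cdca3 (5.27% of all genes tested), and by DESeq2 Cdca3 and Ccne1 were higher and Bub1 lower (17.2%). In 10 genes the 3 naive brain libraries lay above all 3 blood libraries (15.6% of all genes tested), namely Mcm4, Mcm6, Mcm7, Pcna, Rrm1, Ccne1, Cdk1, Cdc20, Cdca3 and Stmn1, and 0 had all 3 below (15.2%). Of these 10, 5 act in DNA replication, as do 14 of the 40 genes. In RPKM, which leaves out the scaling, Ccne1 and Rrm1 stayed apart and the groups of the other genes named overlapped. In RPKM Bub1, Plk1 and Ccne2 lay wholly below blood, so the placement on 1 side only holds for the scaled values. Rrm1, the large subunit of ribonucleotide reductase, measured 24.9, 21.9 and 22.9 CPM in blood and 54.6, 110.7 and 142.5 CPM in naive brain (1.99 ± 0.82). Cdk1 measured 0, 1.65 and 8.45 CPM in blood (3.00 ± 1.11, adjusted p = 0.0809) and 26.5, 2.76 and 2.26 CPM in day 30 brain. Cdca3 had 1, 1 and 2 reads in the 3 blood libraries and 120, 11 and 406 in naive brain (3.35 ± 1.20). Cdc20 had a difference of 2.97 ± 1.002 (adjusted p = 0.0530). The largest negative log2 differences were those of Cenpe (-1.46 ± 0.97), Cdc6 (-0.88 ± 1.18), Mcm2 (-0.81 ± 0.91), Ccnb2 (-0.63 ± 1.23) and Ccne2, a second E-type cyclin (-0.59 ± 0.99), none of which passed. For Cdc6, Mcm2 and Ccnb2 the mean CPM was nevertheless higher in naive brain, at 19.2, 52.7 and 36.3 CPM against 14.9, 44.8 and 13.5 CPM in blood. The replication genes had a median difference of 1.71 (licensing) and 1.97 (nucleotide supply), the cyclins and Cdk1 0.21, the kinase and checkpoint genes 0.45, the 3 genes of the anaphase-promoting complex and mitotic entry 2.97, the spindle genes 0.61 and the 2 of chromosome structure 0.55, against -0.37 over all genes tested. For all 40 genes the median was 0.89, and it was -0.11 with unscaled CPM, where all genes tested had -1.05, and -0.09 without naive brain replicate 3.

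**Figure D5:**
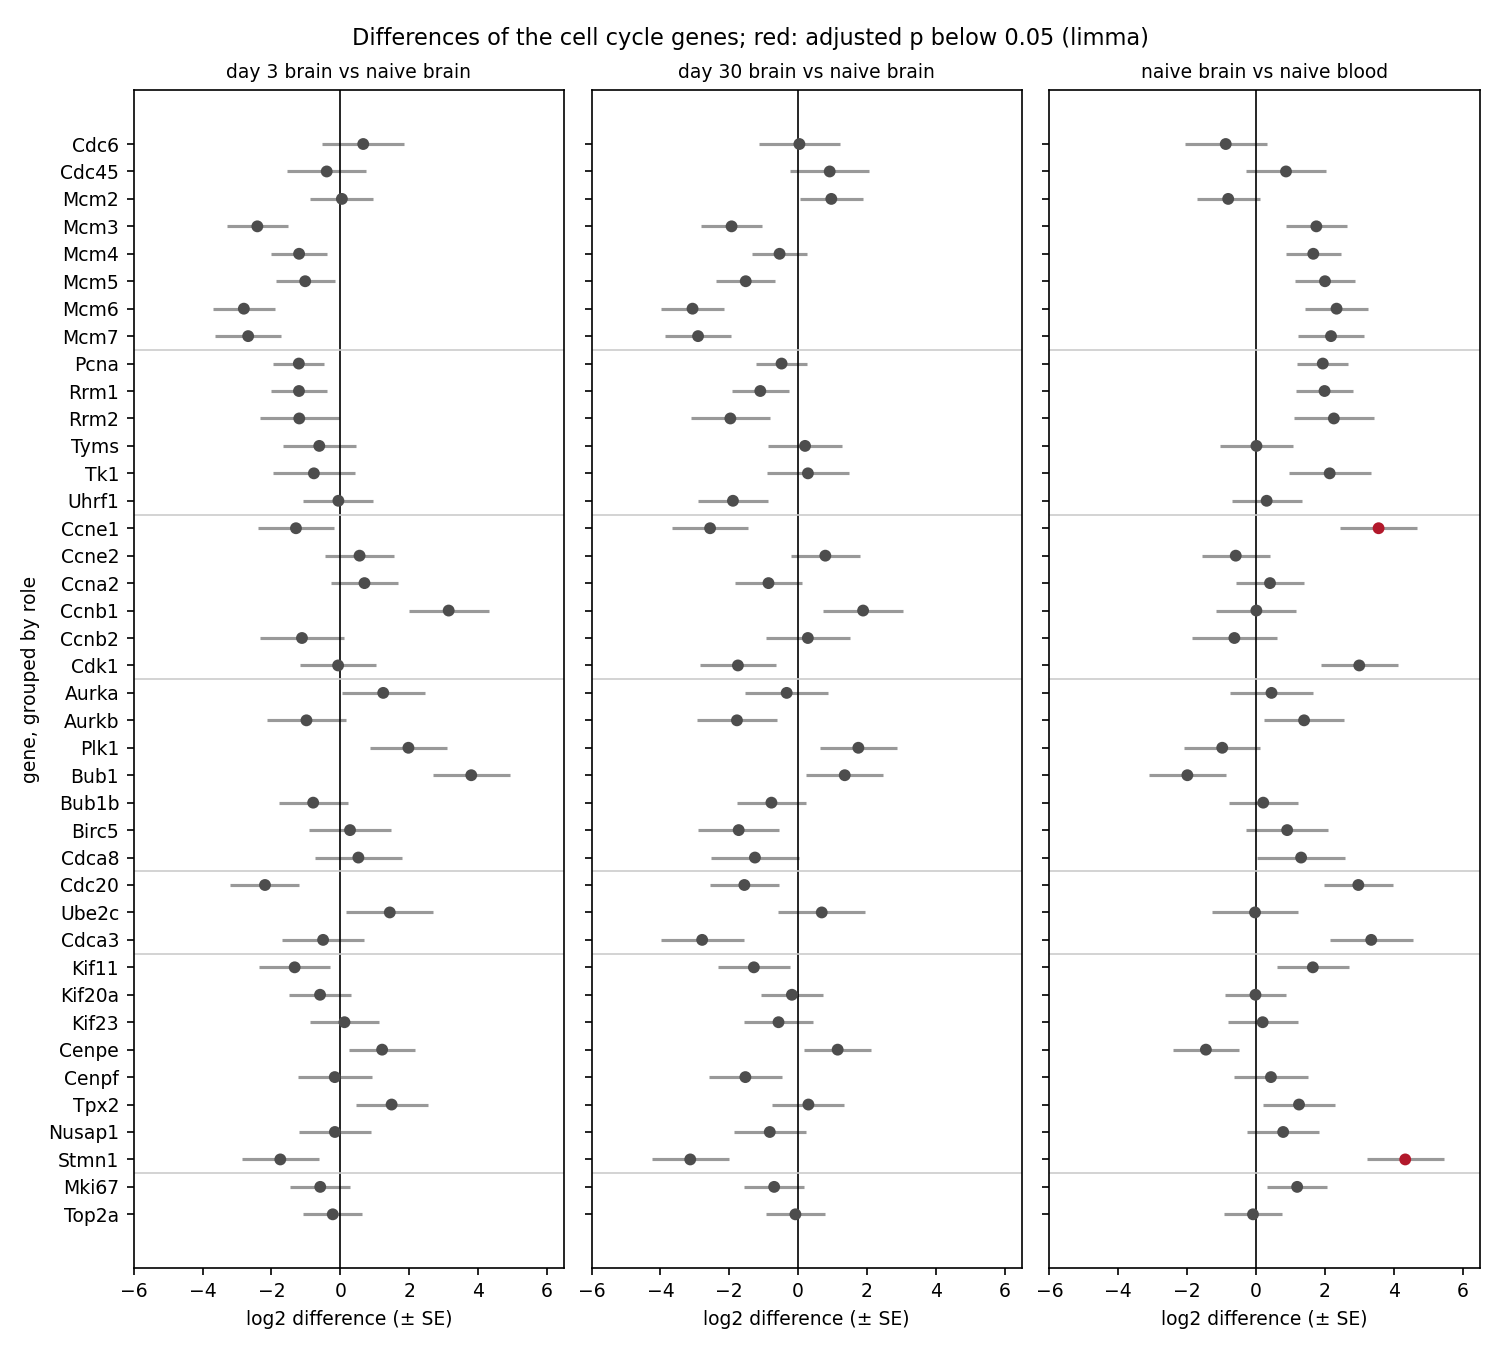
Log2 differences of the 40 genes (rows, in 7 blocks by role) with SE bars in 3 comparisons, from limma. Stmn1 and Ccne1 (red, naive brain against naive blood) are the genes that passed an adjusted p of 0.05, and Mcm3, Mcm6 and Mcm7 lie below -1.9 in both comparisons with naive brain, which share the naive brain libraries.

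Day 3 and day 30 brain were also compared with naive blood, and these comparisons share the blood libraries. In the first, 0 of the 40 genes passed by limma, edgeR or DESeq2, where 1.18%, 1.28% and 2.57% of all genes tested passed. At an unadjusted p below 0.05 there were 6 higher and 0 lower (6.57% and 1.72% of all genes tested). In 6 genes the 3 day 3 libraries lay above all 3 blood libraries (7.54% of all genes tested, with 4.52% wholly below): Cdk1 (2.94 ± 1.11), Ccnb1 (3.16 ± 1.16), Bub1 (1.81 ± 1.12), Tpx2 (2.74 ± 1.05), Cdca3 (2.85 ± 1.20) and Ccne1 (2.27 ± 1.11). None of the 6 belongs to the 14 replication genes, and in RPKM, which leaves out the scaling, Bub1 overlapped with blood. Mcm2 and Tyms lay wholly below blood in RPKM. The licensing genes had a median difference of -0.34 and the cyclins and Cdk1 1.69. In day 30 brain against blood, 0 passed by limma, edgeR or DESeq2, where 0.711%, 0.64% and 1.4% of all genes tested passed. At an unadjusted p below 0.05 there was 1 higher and 0 lower (6.28% and 4.04% of all genes tested). It was Tk1, the thymidine kinase of S phase, at 61.9, 4.59 and 5.87 CPM against 0, 6.58 and 1.06 CPM (2.43 ± 1.20). Ccnb1 and Rrm1 had 3 day 30 libraries above all 3 blood libraries (7.35%) and Bub1b all 3 below (7.38%). In RPKM the groups of Ccnb1 overlapped. In both of these comparisons replicates 2 and 3 of the post-stroke groups share the high receptor gene background of the blood libraries.

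Other genes of the cell cycle were read in 5 lists that hold 95 measured genes. In day 3 brain against naive brain 3 of the 95 fell and 0 rose, where 126 of all 22352 genes tested fell and 34 rose. All 3 belong to the 8 G1 cyclins and kinases, the genes that take a cell from rest towards S phase. Ccnd3, cyclin D3 of lymphocyte proliferation, measured 289, 726 and 906 CPM in naive brain, against 188, 10.01 and 40.7 CPM in day 3 brain, with no overlap (-3.70 ± 0.83, adjusted p = 0.0136). Myc, the growth-promoting transcription factor, changed by -3.55 ± 0.85 (adjusted p = 0.0237) and Ccnd2, cyclin D2, by -2.80 ± 0.71 (adjusted p = 0.0344). With the receptor gene background as a term 0 of all genes tested were lower at day 3, so these 3 did not pass. In day 30 brain against naive brain 1 fell, the antiproliferative gene Btg2 (-3.08 ± 0.74, adjusted p = 0.0485), where 50 of all 22352 genes tested fell. With the background term 0 of all genes tested passed in that pair, so Btg2 did not. Between day 30 and day 3 brain 0 of the 95 passed. In naive brain against naive blood 9 of the 95 rose and 0 fell. They were Myc (3.72 ± 0.85), Cdk4, the partner kinase of the D cyclins (3.50 ± 0.86), Ccnd2 (2.83 ± 0.71) and Ccnd3 (2.79 ± 0.83), the division brakes Btg2 (4.58 ± 0.74) and Cdkn2d (3.96 ± 0.88), E2f4, a mainly repressive E2F factor (2.99 ± 0.92), and the replication genes Rpa2 (3.41 ± 0.84) and Pold1 (3.07 ± 0.996). These 9 are 9.47% of the 95, where 6.61% of all genes tested rose in this pair, in which tissue and background cannot be told apart. In day 3 brain against naive blood 3 rose, cyclin D1 gene Ccnd1 (3.47 ± 0.93) and the kinase inhibitor genes Cdkn1a (3.84 ± 0.97) and Cdkn2d (3.49 ± 0.88), and in day 30 brain against naive blood 0 passed. Of all 22352 genes tested 245 rose in day 3 brain against naive blood. Cdkn1a, which encodes p21, measured 260, 105 and 33.2 CPM in day 3 brain, 30.2, 27.3 and 59.5 CPM in naive brain, 20.6, 3.29 and 2.46 CPM in naive blood and 6.12, 15.6 and 4.52 CPM in day 30 brain. Of the 31 other mitotic genes measured, 0 passed in any of the 6 comparisons, with medians between -0.48 and 0.14.

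Reads of 13 of the 40 genes can belong in part to a neighbour, because their exons overlap those of another annotated gene and the strand setting of the counting is not given in the sources used here. They include Mcm7 with Ap4m1 and Cops6, Cdc20 with Elovl1, Ccna2 with Exosc9, Ccne2 with Ints8, Cdc45 with Ufd1, Tk1 with Afmid and Ube2c with Tnnc2. Stmn1 and Top2a each overlap 1 predicted small gene. None of the 40 shared its counts in every library with another gene.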

How the data were processed

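Sorted cells went into lysis buffer and libraries were made with the SMART-Seq v4 ultra-low input kit, per the labels' protocols. No molecular identifiers are mentioned, so limits from a count of 0 cover counting error only. Per the submitters' processing notes, FastQC 0.11.2, STAR 2.5.3a, featureCounts of Subread, edgeR and build mm10 were used. Annotation, strand setting and filters have no entry among the sources used here. The expression table deposited by the authors holds signal values, each a read count divided by a scaled library size in CPM. Plain CPM had been assumed at the planning stage, and the test was kept. All values (100%) came out as whole reads to within 1e-06, and depths rest on those reads.

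The log2 of CPM + 1 was fitted in limma 3.58.1 (R 4.3.3; empirical Bayes moderation with trend) on all 12 libraries. A gene needed 1 CPM or more in 3 or more libraries, which kept 22352 of 23937. Within each of 6 comparisons the two-sided p-values received a Benjamini-Hochberg adjustment (threshold 0.05). The recovered reads were tested with edgeR 4.0.16 and DESeq2 1.42.0, and other pseudocounts, filters, scalings and fits were tried. The scripts were tested on simulated data. The receptor gene split into 5 and 7 libraries lies at the middle of the widest gap, 1323 unscaled CPM, with the receptor genes' part known from earlier results.

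The 40 genes and all lists were chosen with earlier results of these data known. Values by library are given for genes past the threshold, for Mki67, Top2a, Cdk1, Pcna and Mcm3, and for others named after their values were seen. For every comparison the members with the largest differences are named, at most 5 in either direction, where a group mean reached 10 CPM. Same-numbered libraries of day 30 and day 3 deviated together (correlations across genes 0.53, 0.284 and 0.165), so these were also matched by number. The labels state no such pairing, and day 30 replicate 3 correlated slightly more with day 3 replicate 2 (0.18). Gene positions and exon lengths come from GENCODE vM21, promoters from RefSeq.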

Additional observations from a re-analysis of the deposited data

How the results depend on the processing

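Of the 40 genes, 0 passed in day 3 brain against naive brain. The alternatives gave 4 with library quality weights, where 2104 of all 22352 genes tested passed, and 1 with DESeq2 (1000 of all). Leaving 1 library out gave 0 to 1, with 1 without day 3 replicate 1 (673 of all 22305). Day 30 against naive brain also had 0, with 1 under quality weights (256 of all). Leaving 1 library out gave 0 to 3, with 3 without day 30 replicate 1 (532 of all 22274). In naive brain against naive blood 2 passed (1696 of all). The count was 0 with a pseudocount of 0.1 (1377 of all), quantile normalization (704), the 2 groups alone (1256) or a background term (35). It was 1 with no filter (1322 of all 23937), unscaled CPM (1563) or edgeR (1177). It was 7 with median centring (2894) or quality weights (4169). Leaving 1 library out gave 0 to 3, with 0 without naive blood replicate 1 (1180 of all 22147) or naive brain replicate 3 (768 of all 22325). The weights come from an estimation that stopped before it converged. The limma adjusted p of Stmn1 ran from 0.000531 to 0.9995 over these alternatives and that of Ccne1 from 0.0127 to 0.9995. The mean level of the 40 genes was 0.99 higher in naive brain than in blood, and the difference was -0.067 with unscaled CPM, 2.25 with median centring, -0.22 with a background term and 0.22 without naive brain replicate 3. Without that library, day 3 and day 30 brain less naive brain went from -0.25 and -0.71 to 0.52 and 0.06. The replication less mitosis gap of day 3 less naive brain, -1.26, was -0.87 with a background term. With the replicate number as a block 3 genes passed in naive brain against blood (Ccne1, Pcna and Stmn1), where 1944 of all genes did. The block changed no other count of the 40 genes. Only between day 30 and day 3 did every same-numbered pair correlate positively. In no comparison did every library correlate best with its own number. Under that block 314 of all genes passed in day 3 against naive brain (160 without), 121 in day 30 against naive brain (50 without) and 296 in day 30 brain against blood (159 without). Of 300 alternative values of counts and means, 280 were scored as the same. For a count this meant equal or close to the main count, and for a difference of means a shift smaller than the replicate SD. Of 640 values for single genes 615 kept their call. The sign changed in 19 differences of means, which have no test, and in 54 single-gene values that did not pass. No called difference reversed, and the cause of the shifts was not tested. Of the 40 genes 12 had no read in at least 1 library. Naive blood replicate 2, the shallowest library, had 0 genes without a read. Naive brain replicates 2 and 3, the deepest, had 3 and 1. The part of depth in these zeros was not tested.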
